A study of Mus musculus with 6 samples.

Results

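The laser-captured parvafox nucleus was set against the hippocampus of the same mice, using 4 arrays of a series of 6. There were 2 parvafox nucleus arrays and 2 hippocampus arrays, 1 for each region from each of the mice numbered 355 and 511, and the members described here are the 22180 genes that had at least 1 probe set with exactly 1 gene symbol among 41345 probe sets. A gene with more than 1 such probe set was read from the brightest one over the 6 arrays. The parvafox group comprised adult mice, labelled C57BL/6 for mouse 355 and carrying no strain entry for the nucleus array of mouse 511, while both hippocampus arrays were labelled adult C57BL/6. The methods give C57BL/6 for the mice killed for the arrays, and the sources give no transgene or treatment for either region. The remaining arrays of the series came from the cerebral cortex of these mice, and are used only where they show how a gene or gene group stood in a further region.

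According to the methods, the mice were killed by cervical dislocation and the nucleus was found on alternate frozen horizontal sections by a plant lectin that binds the sugar-rich nets around its parvalbumin neurons. The capture therefore took a region with all its cells, fibres and vessels, not isolated parvalbumin cells, and the hippocampal pieces came from the CA2 and CA3 area. The mice were chosen among 6 for the best preserved RNA, and the captured RNA was amplified before hybridization. A difference between such pieces of tissue cannot tell fewer cells of a type apart from less RNA per cell.

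The parvafox nucleus is a slender cord of neurons in the ventrolateral hypothalamus, between the optic tract and the fornix. Its core is made of parvalbumin neurons that release glutamate and are wrapped in perineuronal nets, and a shell of neurons that carry the forkhead factor Foxb1 surrounds it. Hypothalamic neurons load glutamate into vesicles mostly with the transporter Vglut2 (Slc17a6), and many of them also make neuropeptides. The pyramidal neurons of the hippocampus are telencephalic, load glutamate mostly with Vglut1 (Slc17a7), carry dense dendritic spines and are surrounded by GABAergic interneurons with peptides such as somatostatin and cholecystokinin. The comparison therefore sets a hypothalamic cell group against a cortical structure with a different main glutamate transporter and different transcription factors.

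All values below are log2 signals of the deposited arrays, on which a difference of 1 is 2-fold. Values are given for mouse 355 and then for mouse 511, and a difference is that of nucleus minus hippocampus within a mouse. The array medians lay between 3.54 and 3.68 and the 75th percentiles between 5.57 and 5.64, so the 6 arrays had nearly the same distribution.

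Of the 22180 genes, 219 were higher in the nucleus by 2-fold or more in both mice (0.987%) and 338 were lower by 2-fold or more in both (1.52%). In 1 mouse alone the counts were larger, with 703 higher and 740 lower genes in mouse 355 and 850 higher and 1183 lower genes in mouse 511. Only 26 genes were at least 2-fold higher in mouse 355 and 2-fold lower in mouse 511, and 23 showed the reverse. At any size, 6652 genes were higher in both mice (30.0%), 5892 were lower (26.6%) and 9636 had opposite signs or no difference (43.4%), and the median difference of all genes was 0.02. At 4-fold in both mice 36 genes were higher and 58 lower, and at 8-fold 6 were higher and 14 lower. Among genes just past the 2-fold line, Ppip5k2 had differences of 1.30 and 1.01, and just short of it Cradd had 0.99 and 1.05. Differences of the mice correlated across genes with r = 0.404 over 22180 genes, with r = 0.586 over the 5831 genes with a mean signal of at least 6 and with r = 0.263 over the 16349 dimmer ones. These are correlations across genes of the same 4 arrays, and genes are not independent replicates. The 2 nucleus arrays differed by at least 2-fold at 1143 genes and the 2 hippocampus arrays at 667.

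**Figure D1:**
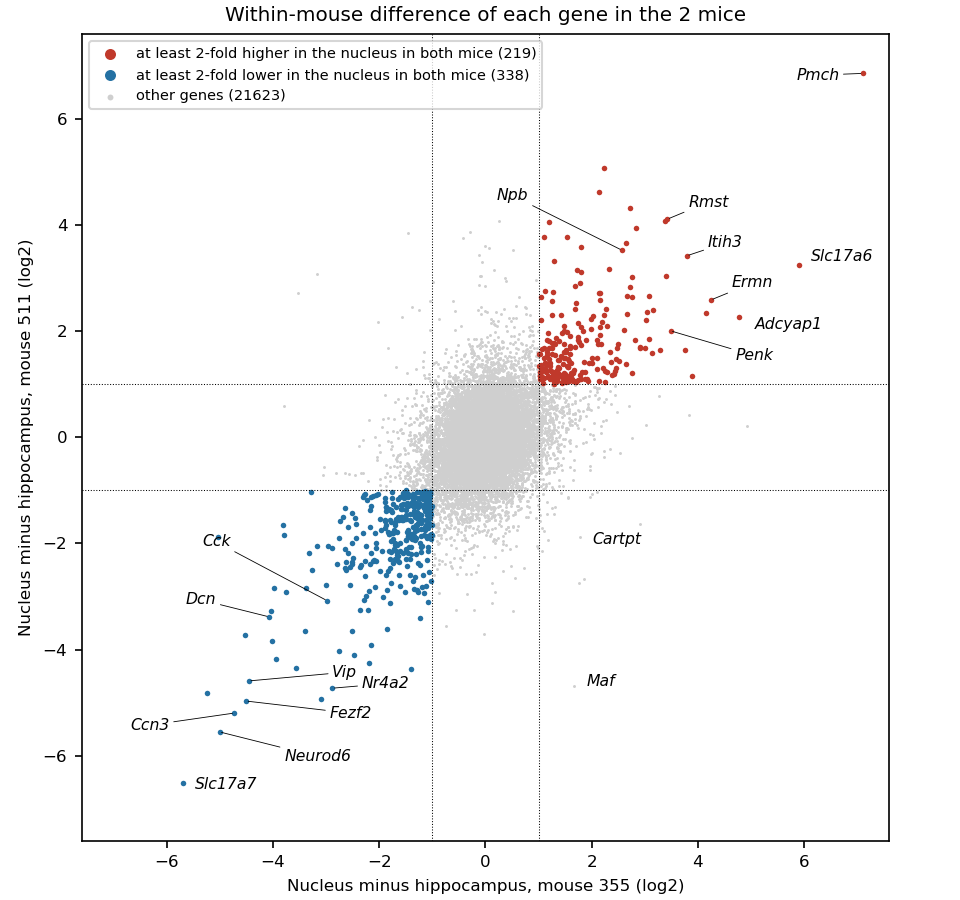
Each point is 1 of 22180 genes, with its nucleus minus hippocampus difference (log2) in mouse 355 on the x axis and in mouse 511 on the y axis, and dotted lines mark a 2-fold difference. The 219 genes past the line in the upper right corner and the 338 in the lower left corner are coloured, and Pmch and Slc17a7 stand farthest out.

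With 2 mice, a test of a single gene that flips the signs of the mice cannot give a two-sided exact permutation p below 0.5. The test used instead was limma across all probe sets, with the mouse as a block. It called 1 gene after Benjamini-Hochberg adjustment over all 41345 probe sets, higher in the nucleus (0.00242% of the probe sets), and none lower (0%). At an unadjusted p under 0.05 it gave 1982 higher and 1970 lower probe sets. Fitted on the brightest probe set of each gene only, limma called 12 genes higher (0.0541%) and 39 lower (0.176%). The p-values measure the spread that remains over all 3 regions after the block for the mouse, with only 2 mice. Most genes named below did not pass an adjusted p over all probe sets and were chosen largely for the size of their differences. Values that did not overlap between the regions therefore describe these genes and are not a test.

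The gene that passed was Pmch, which encodes the precursor of melanin-concentrating hormone, a peptide of lateral hypothalamic neurons that promotes feeding and sleep. Pmch had 10.24 and 9.81 in the nucleus, against 3.14 and 2.96 in the hippocampus. Its differences of 7.11 and 6.85 correspond to 138- and 116-fold (limma adjusted p = 0.0495 over all probe sets, mean difference 6.98, SE 0.23). The call was lost when any 1 array was left out (adjusted p between 0.169 and 0.575) or when only the 4 arrays of these regions were fitted (0.228). Both hippocampal values lay below the median of their arrays, and the cortex had 4.19 and 3.40.

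The gene with the next-largest mean difference above 0 was Slc17a6, the vesicular glutamate transporter 2 of subcortical glutamatergic neurons. Slc17a6 had 10.18 and 9.53 in the nucleus, against 4.29 and 6.28 in the hippocampus, which is 59.6- and 9.52-fold. The regions did not overlap, but the mean difference of 4.57 had an SE of 0.95 and an adjusted p of 0.31 by limma over all probe sets, in a fit that also holds the cortex arrays. In mouse 511 alone, genes such as Rmst (4.11) and Glra3 (4.08) had a larger difference than Slc17a6 (3.25). The cortex had 8.24 and 6.24 for this gene, between the other regions in mouse 355 and level with the hippocampus in mouse 511.

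The counterpart, Slc17a7, which encodes the vesicular glutamate transporter 1 of cortical and hippocampal pyramidal neurons, was the gene with the lowest mean difference. Slc17a7 had 4.13 and 3.27 in the nucleus, against 9.83 and 9.79 in the hippocampus, or 52- and 91.3-fold less. Its adjusted p by limma was 0.117 over all probe sets and 0.0116 over genes. The Slc17a7 signal was thus near the array median in the nucleus and far above it in the hippocampus. Neurons that carry both Slc17a7 and zinc in their vesicles also use Slc30a3, a vesicular zinc transporter, which had 5.00 and 4.99 in the nucleus, against 8.76 and 7.90 in the hippocampus.

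Pmch, the called gene, the paired glutamate transporters Slc17a6 and Slc17a7, and Vip, an interneuron peptide described below, mark neurons of the hypothalamus or hippocampus. The stretches around their transcription starts are shown here. Each runs from 250 bases before to 50 bases after the start in RefSeq (build GRCm38.p6), 5′ to 3′ on the strand of the gene, with 2 annotated starts for Slc17a6. Capitals mark the TATA box motif TATAAA and the motif CAGATG, an E-box that factors of the NeuroD family bind, both searched on both strands. The regions are chr10:88090822-88091121 for Pmch, chr7:51621580-51621879 and chr7:51624387-51624686 for Slc17a6, chr7:45163671-45163970 for Slc17a7 and chr10:5638968-5639267 for Vip.
Pmch: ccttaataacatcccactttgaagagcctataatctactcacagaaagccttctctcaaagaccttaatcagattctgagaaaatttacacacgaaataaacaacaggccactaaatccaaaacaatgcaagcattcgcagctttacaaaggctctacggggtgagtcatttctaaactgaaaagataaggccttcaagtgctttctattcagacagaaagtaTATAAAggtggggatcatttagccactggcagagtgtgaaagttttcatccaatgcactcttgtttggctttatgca
Slc17a6 start 1: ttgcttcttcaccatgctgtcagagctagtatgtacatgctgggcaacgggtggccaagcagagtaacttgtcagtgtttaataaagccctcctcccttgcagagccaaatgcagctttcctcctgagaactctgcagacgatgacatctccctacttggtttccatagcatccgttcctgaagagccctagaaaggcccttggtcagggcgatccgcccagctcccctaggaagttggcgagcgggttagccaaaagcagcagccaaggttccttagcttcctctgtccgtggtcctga
Slc17a6 start 2: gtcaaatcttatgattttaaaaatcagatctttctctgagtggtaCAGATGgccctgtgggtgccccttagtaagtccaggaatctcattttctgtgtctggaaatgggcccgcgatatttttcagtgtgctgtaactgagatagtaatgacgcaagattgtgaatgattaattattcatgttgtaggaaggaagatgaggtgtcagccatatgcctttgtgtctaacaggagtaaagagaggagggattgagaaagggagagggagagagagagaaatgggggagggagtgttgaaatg
Slc17a7: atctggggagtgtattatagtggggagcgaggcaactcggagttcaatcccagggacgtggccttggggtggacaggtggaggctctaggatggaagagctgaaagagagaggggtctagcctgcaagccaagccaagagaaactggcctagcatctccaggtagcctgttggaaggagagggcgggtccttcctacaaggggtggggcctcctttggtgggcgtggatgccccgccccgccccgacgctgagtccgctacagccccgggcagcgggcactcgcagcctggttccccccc
Vip: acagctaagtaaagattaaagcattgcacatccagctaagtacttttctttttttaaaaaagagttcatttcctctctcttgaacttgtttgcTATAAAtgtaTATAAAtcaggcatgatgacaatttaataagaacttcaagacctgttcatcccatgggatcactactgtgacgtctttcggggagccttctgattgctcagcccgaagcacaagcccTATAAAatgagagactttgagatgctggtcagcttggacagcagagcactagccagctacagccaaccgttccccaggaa
The Pmch stretch held TATAAA 27 bases before the start, and the Vip stretch held it at 157, 147 and 30 bases before. Neither Slc17a7 nor the first start of Slc17a6 held either motif, while the second start of Slc17a6 held CAGATG 205 bases before it. Guanine and cytosine made up 63.7% of the Slc17a7 stretch, 53.7% and 43.0% of the Slc17a6 stretches, 41.7% of the Vip stretch and 39.0% of the Pmch stretch. RefSeq promoters of this length were matched by symbol for 173 of the 219 higher genes (214 promoters) and 263 of the 338 lower genes (354 promoters). TATAAA was in 7.94% of the promoters of the higher genes and in 12.1% of those of the lower genes, against 12.3% of 20611 promoters of measured genes and 13.6% of all 32851 promoters. CAGATG was in 17.8% of the promoters of the higher genes and in 14.4% of those of the lower genes, against 14.6% of those of measured genes and 17.2% of all. Among 26 promoters of 15 lower telencephalic transcription factors, a list described below, each motif was in 10 (38.5%), and among 14 promoters of 12 higher oligodendrocyte genes TATAAA was in 1 and CAGATG in 4. Several promoters of a gene can overlap. A match describes these letters only, and none of these shares was tested.

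Pmch headed a list of hypothalamic neuropeptides. Of 31 measured, 6 were at least 2-fold higher in both mice (Pmch, Adcyap1, Npb, Penk, Tac1 and Nts) and 1 was lower (Grp), against 0.987% and 1.52% of all genes. The study chose Pmch, Adcyap1, Npb and Penk on these same arrays, so their place in this count is not independent evidence. The list as a whole had no common direction, with 13 members higher in both mice at any size (30.0% of all genes), 7 lower (26.6%) and 11 of opposite signs (43.4%), and list medians of 0.267 and -0.045.

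Adcyap1 encodes PACAP, a peptide with receptors in the hypothalamus and many other regions. It had 8.37 and 8.03 in the nucleus, against 3.60 and 5.77 in the hippocampus. Npb, which encodes neuropeptide B, had 5.81 and 6.79 in the nucleus, against 3.24 and 3.27 in the hippocampus, and passed limma over genes (adjusted p = 0.046) but not over all probe sets (0.169). Penk, the enkephalin precursor, had 8.89 and 7.73 in the nucleus, against 5.40 and 5.72 in the hippocampus. In each of these 3 genes both nucleus arrays were above both hippocampus arrays. Tac1, which encodes substance P and neurokinin A, had 8.03 and 9.17 in the nucleus, against 5.90 and 6.45 in the hippocampus. Nts, the neurotensin precursor, had 7.19 and 7.76, against 5.52 and 6.70. The cortex had 7.47 and 10.15 for Penk and 5.45 and 8.14 for Nts, below the nucleus in mouse 355 and above it in mouse 511. Penk and Tac1 are also transcripts of striatal projection neurons, whose list had 2 of 11 members at least 2-fold higher (these same genes) and 1 lower. By this rule 0.987% of all genes were higher and 1.52% lower.

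Other peptides were not 2-fold higher in the nucleus in both mice. Gal, the galanin precursor, had 6.78 and 4.15 in the nucleus, against 3.51 and 3.37 in the hippocampus, so only the nucleus of mouse 355 stood out clearly. Cartpt, which encodes the CART peptide that many Pmch neurons of the rodent hypothalamus contain, had 7.92 and 5.00 in the nucleus, against 6.15 and 6.88 in the hippocampus, with differences of 1.77 and -1.88. Hcrt, the orexin precursor, which marks the neighbouring orexin neurons, stayed near the low end of the arrays, at 3.74 and 2.73 in the nucleus and 3.06 and 3.25 in the hippocampus. Grp, gastrin-releasing peptide, was the one lower member, with 5.71 and 5.21 in the nucleus, against 7.21 and 6.75 in the hippocampus.

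Peptides and enzymes of GABAergic interneurons were lower in the nucleus. Of 25 interneuron genes, 7 were at least 2-fold lower in both mice and 1 higher (Calb2), against 1.52% and 0.987% of all genes. At any size 18 were lower in both mice, against 26.6% of all genes (median difference -0.84). Vip, the vasoactive intestinal peptide of interneurons that mostly inhibit other interneurons, had 3.41 and 2.85 in the nucleus, against 7.87 and 7.44 in the hippocampus (21.9- and 24.1-fold less, adjusted p = 0.0681 over all probe sets and 0.00639 over genes by limma). Cck, the cholecystokinin of basket cells and of some pyramidal cells, had 7.42 and 7.26 in the nucleus, against 10.41 and 10.33 in the hippocampus. The mice differed by less than 2-fold within either region for both genes.

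Npy, neuropeptide Y, had 7.38 and 7.17 in the nucleus, against 9.89 and 9.55 in the hippocampus, and Cort, which encodes the somatostatin-like peptide cortistatin, had 4.10 and 3.41, against 5.94 and 7.02. Sst, somatostatin itself, had 8.78 and 8.28 in the nucleus, against 9.86 and 11.38 in the hippocampus, with differences of -1.08 and -3.10 that passed 2-fold in both mice. The somatostatin signal in the nucleus was therefore lower than in the hippocampus, but not near the low end of the arrays. Gad1, the main enzyme of GABA synthesis, had 4.06 and 3.49 in the nucleus, against 5.51 and 5.67 in the hippocampus. The vesicular GABA transporter Slc32a1 had 5.00 and 4.48 in the nucleus, against 6.09 and 6.35 in the hippocampus. The second enzyme of GABA synthesis, Gad2, was lower in both mice with differences of -0.67 and -1.90, short of 2-fold in mouse 355.

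**Figure D2:**
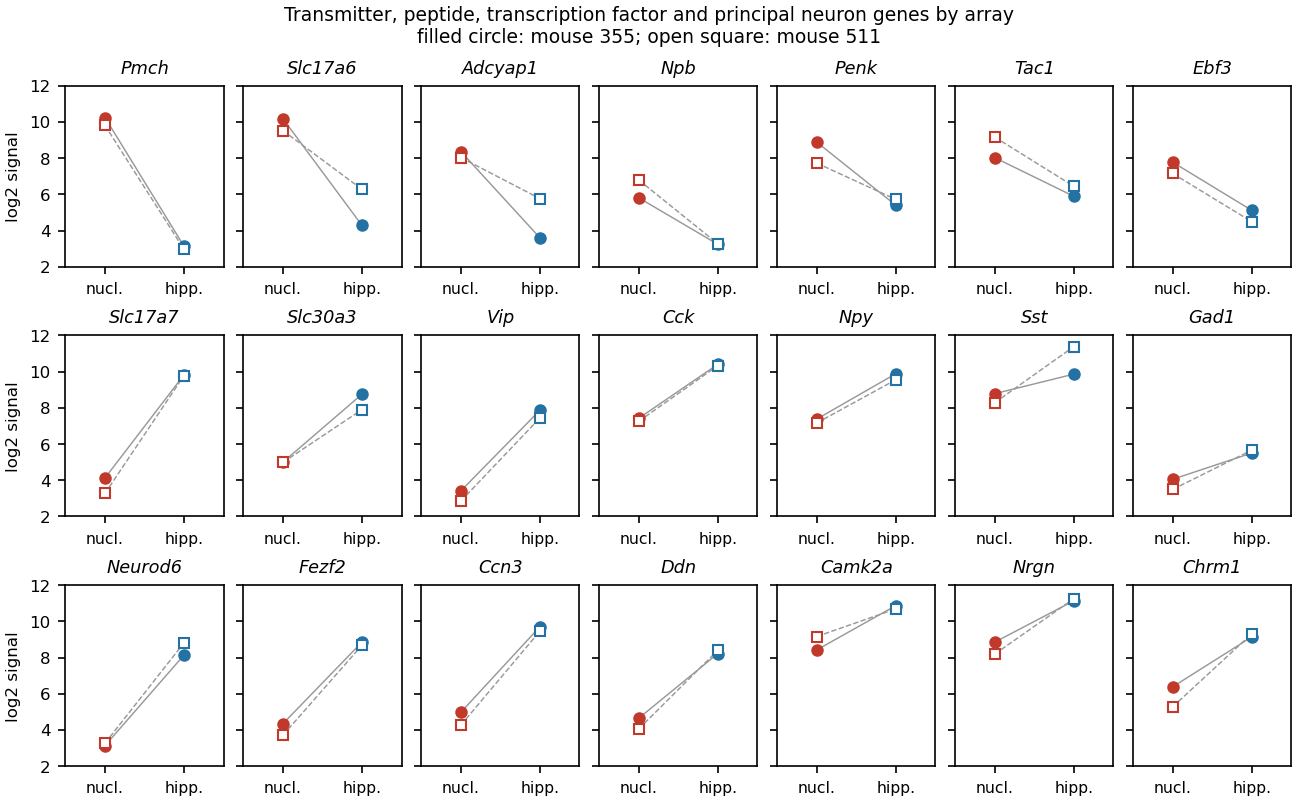
Log2 signal of neuronal genes in each array, with the nucleus on the left and the hippocampus on the right of each panel, mouse 355 as filled circles and mouse 511 as open squares joined by mouse. The nucleus points of Pmch (10.24 and 9.81) lie far above those of the hippocampus (3.14 and 2.96), and Slc17a7 runs the opposite way.

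Transcription factors that pattern the telencephalon were lower in the nucleus in larger share than any other neuronal list. Of 27 measured, 17 were lower by 2-fold or more in both mice and none was higher (63.0%, against 1.52% of all genes), with list medians of -1.36 and -1.69. Neurod6, a basic helix-loop-helix factor of pyramidal neurons, had 3.13 and 3.26 in the nucleus, against 8.14 and 8.81 in the hippocampus. Fezf2, which specifies corticofugal neurons in the cortex, had 4.34 and 3.71 in the nucleus, against 8.85 and 8.68 in the hippocampus. Nr4a2, an orphan nuclear receptor, had 4.74 and 4.51 in the nucleus, against 7.62 and 9.23 in the hippocampus. In all 3 the lower hippocampal value was more than 2 log2 units above the higher nucleus value.

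Neurod2 had 5.31 and 3.83 in the nucleus, against 7.47 and 7.75 in the hippocampus, and Bcl11a, a zinc finger factor of forebrain neurons, had 4.75 and 5.47, against 7.53 and 7.85. Emx2, a homeobox factor that the hippocampus needs to form, had 3.85 and 4.67 in the nucleus, against 5.81 and 6.41 in the hippocampus, and passed limma over genes (adjusted p = 0.046) together with Fezf2 (0.0384). The further members past 2-fold were Neurod1, Bcl11b, Zbtb18, Lmo4, Egr3, Mef2c, Prox1, Lhx2, Etv1, Tbr1 and Pou3f1. In the contrast of nucleus with cortex, which uses the same nucleus arrays, 9 of these 27 genes were 2-fold lower (0.956% of all genes), and the list median was -0.91.

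Factors of hypothalamic and other subcortical neurons lay on the other side, but by smaller amounts. Of 41 measured, 27 were higher in the nucleus in both mice, against 30.0% of all genes, and 4 lower, against 26.6% (median difference 0.28), yet only Ebf3 was at least 2-fold higher in both. Ebf3, a helix-loop-helix factor, had 7.78 and 7.16 in the nucleus, against 5.12 and 4.49 in the hippocampus, with the same difference of 2.66 in both mice (limma adjusted p = 0.149 over all probe sets and 0.0354 over genes). Foxb1, the factor that marks the shell of the nucleus, had 5.82 and 4.15 in the nucleus, against 3.55 and 3.82 in the hippocampus. Lhx1, a LIM homeobox factor, had 5.66 and 4.12, against 3.54 and 3.39, so that for both genes the nucleus array of mouse 355 was higher than that of mouse 511. Nkx2-2, a homeobox factor of the ventral neural tube, had 6.45 and 5.29 in the nucleus, against 4.34 and 4.45 in the hippocampus, with differences of 2.11 and 0.84. Meis2, of the same list, had 5.37 and 6.06 in the nucleus, against 6.74 and 7.06 in the hippocampus.

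Genes of the postsynaptic side of spines were lower in the nucleus almost without exception. Of 26 proteins of the pyramidal neuron postsynaptic density, 25 were lower in both mice, against 26.6% of all genes, and 11 of them by at least 2-fold, against 1.52% (list medians -0.98 and -1.21). Ddn (dendrin), which lies in dendrites and spines, had 4.65 and 4.06 in the nucleus, against 8.22 and 8.40 in the hippocampus. Itpka, an inositol trisphosphate kinase of spines that binds actin, had 4.15 and 4.46 in the nucleus, against 8.19 and 7.73. Icam5 (telencephalin), an adhesion molecule made by telencephalic neurons, had 5.31 and 5.08 in the nucleus, against 7.81 and 7.44. These values left a gap of at least 2 log2 units between the regions for each gene.

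Nrgn (neurogranin), which binds calmodulin in dendrites, had 8.85 and 8.19 in the nucleus, against 11.13 and 11.25 in the hippocampus. Camk2a, the alpha subunit of the calcium/calmodulin-dependent kinase of spines, had 8.42 and 9.16 in the nucleus, against 10.87 and 10.69 in the hippocampus. Both remained among the bright genes of the nucleus arrays, so their difference is one of degree. Dlg4, the PSD-95 scaffold found at glutamatergic synapses in most regions, had 8.35 and 8.14 in the nucleus, against 8.74 and 8.91, with differences of -0.39 and -0.78.

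Markers that tell hippocampal fields apart were less uniform. Of 29 genes of the pyramidal fields 4 were lower in the nucleus by 2-fold or more (Ccn3, Cpne7, Nptx1 and Mpped1) and none higher. Of all genes, 1.52% were lower and 0.987% higher by this rule. At any size 14 were lower in both mice, against 26.6% of all genes, and 7 were higher, against 30.0%. The list median was -0.10, and 0.06 after subtraction of Actb. Ccn3, a secreted matrix protein, had 4.97 and 4.26 in the nucleus, against 9.70 and 9.46 in the hippocampus (adjusted p = 0.0681 over all probe sets and 0.00639 over genes by limma). Of 13 dentate gyrus genes 8 were lower in both mice and none higher (26.6% and 30.0% of all genes). At least 2-fold lower were 2 of them, against 1.52% of all genes. C1ql2, a complement-like protein that granule cells secrete at mossy fibre synapses, had 4.07 and 4.58 in the nucleus, against 7.24 and 6.63 in the hippocampus, and Prox1, the homeobox factor of granule cells, had 5.77 and 5.65, against 7.67 and 6.80.

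Glutamate receptor genes were lower in the nucleus where they passed 2-fold. Of 32 subunits and auxiliary proteins 8 were at least 2-fold lower in both mice, against 1.52% of all genes, and none higher, against 0.987%. The median difference was -0.58. Grin2a, the GluN2A subunit of NMDA receptors, had 4.48 and 4.88 in the nucleus, against 7.44 and 6.93 in the hippocampus. Gria2, the AMPA receptor subunit that blocks calcium entry, had 8.04 and 8.44, against 9.88 and 9.78, and Gria3 had 6.86 and 5.72, against 8.21 and 8.57. All 3 genes had both nucleus arrays below both hippocampus arrays. Neto1, an auxiliary protein of kainate receptors, had 6.63 and 6.57 in the nucleus, against 8.75 and 8.90 in the hippocampus. Cnih3, a cornichon that escorts AMPA receptors, went apart between the mice, with 5.01 and 9.39 in the nucleus, against 8.81 and 8.81 in the hippocampus.

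Glycine receptor genes ran the other way. Of 7 genes, the alpha subunits Glra1, Glra2 and Glra3 were at least 2-fold higher in the nucleus in both mice, against 0.987% of all genes. These alpha subunits are among the genes the study chose on these same arrays, so this count is not independent evidence. The list medians were 0.511 and 0.496. Glycine receptors are chloride channels built from alpha subunits alone or with the beta subunit Glrb, and gephyrin (Gphn) anchors them at inhibitory synapses. Glra2 had 7.04 and 7.22 in the nucleus, against 4.39 and 4.90 in the hippocampus (6.32- and 4.98-fold, limma adjusted p = 0.152 over all probe sets and 0.0401 over genes). Glra3 had 5.90 and 7.09 in the nucleus, against 2.52 and 3.01 in the hippocampus, which was the largest difference of the list at 10.4- and 16.9-fold. Glra1, the subunit that dominates in the adult spinal cord, had 5.62 and 4.90 in the nucleus, against 3.67 and 3.50 in the hippocampus. Neither Glra3 (limma adjusted p = 0.453 over all probe sets and 0.257 over genes) nor Glra1 (0.504 and 0.327) passed. The cortex had 6.15 and 2.67 for Glra3 and 6.55 and 3.97 for Glra1, above the nucleus in mouse 355 and below it in mouse 511. The shared partners overlapped between the regions, with 8.34 and 7.85 for Glrb in the nucleus, against 8.02 and 8.24 in the hippocampus, and 7.71 and 7.89 for Gphn, against 7.53 and 7.87. The remaining alpha subunit, Glra4, was dim in every array, at 3.36 and 3.26 in the nucleus and 2.84 and 2.77 in the hippocampus.

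Among 11 GABA-A receptor subunits 1 was at least 2-fold higher in the nucleus and 2 lower (0.987% and 1.52% of all genes). Gabrq, the theta subunit, which is found mainly in hypothalamus and brainstem, had 6.15 and 4.95 in the nucleus, against 3.07 and 2.29 in the hippocampus (8.45- and 6.34-fold). Gabra4, an alpha subunit of extrasynaptic receptors in the forebrain, had 6.37 and 6.97, against 8.52 and 8.10, and Gabra2 had 5.94 and 6.15, against 7.63 and 7.69. For each of these subunits the regions did not overlap.

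Receptors for acetylcholine, monoamines and peptides split in both directions, with 3 of 57 at least 2-fold higher in the nucleus and 4 lower. Over all genes these shares were 0.987% and 1.52%. Chrm1, the M1 muscarinic receptor of pyramidal neurons, had 6.38 and 5.28 in the nucleus, against 9.14 and 9.31 in the hippocampus, and was the lowest of the group. Chrm2, the M2 receptor, had 6.25 and 6.34 in the nucleus, against 4.44 and 4.60 in the hippocampus, so these muscarinic subtypes stood in opposite order. Gpr139, an orphan receptor of the habenula and hypothalamus, had 7.03 and 6.05 in the nucleus, against 4.52 and 4.61 in the hippocampus. Drd2, the dopamine D2 receptor, had 7.27 and 6.61 in the nucleus, against 5.76 and 5.41 in the hippocampus, and the cortex arrays of the mice spread more widely for this gene (5.71 and 8.91). Mchr1, the receptor of the Pmch product, was not higher in the nucleus, where it had 5.20 and 4.72, against 5.60 and 5.82 in the hippocampus.

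**Figure D3:**
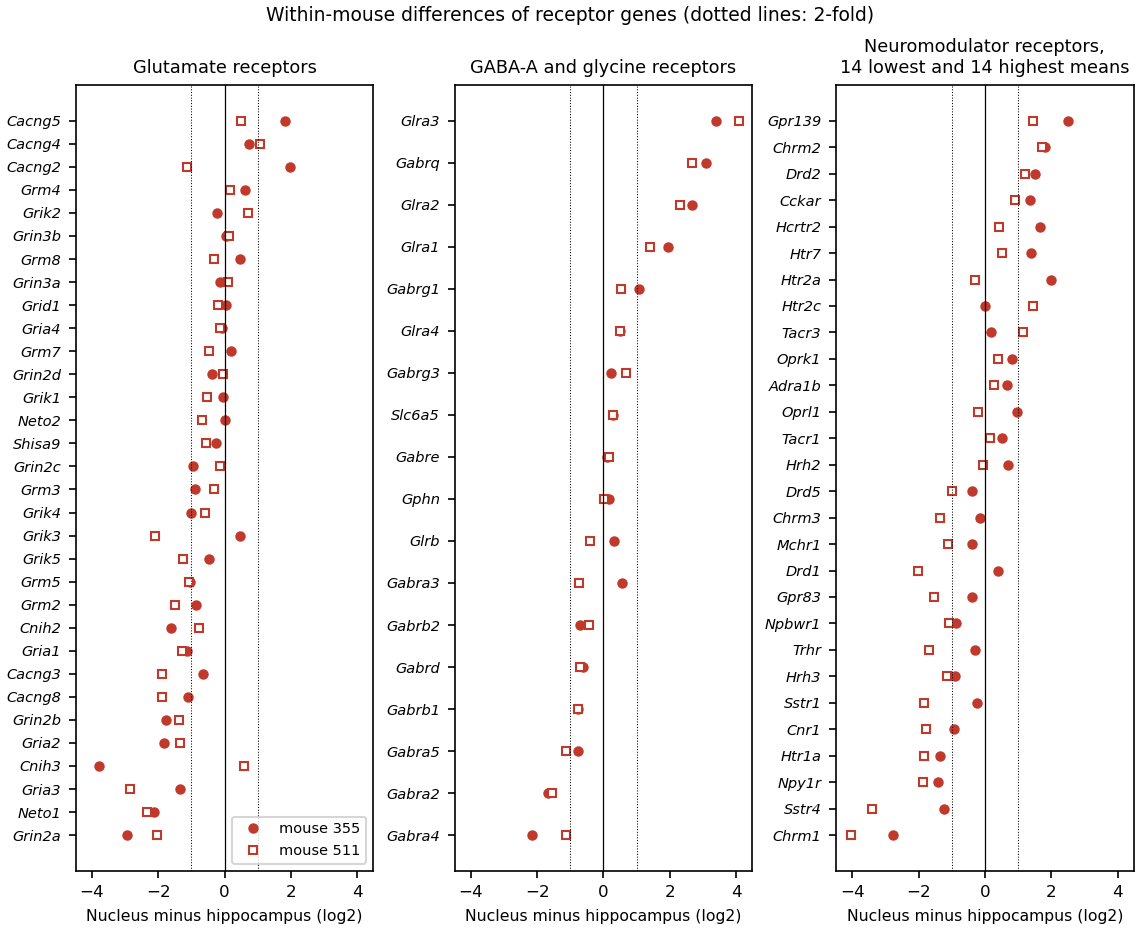
Nucleus minus hippocampus difference (log2) of receptor genes in mouse 355 (filled circles) and mouse 511 (open squares), in panels for glutamate receptors, GABA-A and glycine receptors, and the lowest and highest neuromodulator receptors. Glra1, Glra2, Glra3 and Gabrq lie above the 2-fold line in both mice, while Chrm1 lies at -2.76 and -4.03.

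Calcium-binding proteins had no common direction, with 1 of 20 at least 2-fold higher and 2 lower (0.987% and 1.52% of all genes). Pvalb encodes parvalbumin, the protein by which the core of the nucleus was first seen. It had 7.91 and 7.70 in the nucleus, against 7.0 and 6.78 in the hippocampus, with differences of 0.91 and 0.92 that were alike in the mice and stayed short of 2-fold (limma adjusted p = 0.686). The limma fit takes its spread from all 3 regions, and for Pvalb the cortex arrays stood farther apart, at 7.95 and 5.74. Hippocampal basket cells also make parvalbumin, so the gene marks neurons in both regions. Calb2 (calretinin) was the member past 2-fold, with 7.23 and 8.43 in the nucleus, against 4.15 and 6.59 in the hippocampus. The hippocampus of mouse 511 had more Calb2 signal than that of mouse 355, although both remained below the nucleus arrays.

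Proteins of the release machinery were split. Of 16 genes of a list of neurofilament, synuclein and release proteins, 2 were at least 2-fold higher in the nucleus and 2 lower. Over all genes these shares were 0.987% and 1.52%. Vamp1, the synaptobrevin of brainstem and other caudal neurons, had 8.70 and 8.23 in the nucleus, against 6.47 and 5.92 in the hippocampus, and Syt2, the fast calcium sensor of many inhibitory and brainstem terminals, had 6.61 and 6.32, against 4.84 and 5.14. The sensor of forebrain glutamate terminals, Syt1, had 9.20 and 8.57 in the nucleus, against 10.42 and 10.73 in the hippocampus. It was the 1 of 15 pan-neuronal genes that was at least 2-fold lower, against 1.52% of all genes, and none was higher. The pan-neuronal list leaned lower in the nucleus, with 8 members lower in both mice, against 26.6% of all genes, and 2 higher, against 30.0%. Its medians were -0.12 and -0.62, so the shift was mostly that of mouse 511. Its summed signal on the linear scale was 13707 and 10251 in the nucleus, against 15171 and 17396 in the hippocampus, and its part in the neuronal differences above was not tested.

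Ion channels were mostly lower or undivided. Of 43 potassium channel genes 25 were lower in both mice, against 26.6% of all genes, and 8 higher, against 30.0%. Past 2-fold, 5 were lower and 1 was higher, against 1.52% and 0.987% of all genes. Kcnh3, a voltage-gated channel of forebrain neurons, had 4.00 and 4.74 in the nucleus, against 7.25 and 7.24 in the hippocampus, and its relative Kcnh5 had 6.69 and 6.25, against 5.24 and 5.24, in the opposite order. Of 27 sodium, calcium and HCN channel genes 1 was higher and 1 lower past 2-fold, and over all genes these shares were 0.987% and 1.52%. Scn4b, the sodium channel beta subunit linked to fast repetitive firing, had 5.90 and 5.71 in the nucleus, against 4.22 and 4.01 in the hippocampus, and Cacna1e, an R-type calcium channel, had 5.61 and 6.21, against 7.36 and 8.0.

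Secreted and adhesive synapse organizers had members at both ends, 4 of 32 at least 2-fold higher and 3 lower. Of all genes, 0.987% were higher and 1.52% lower by this rule. Nxph4, a neurexophilin that binds neurexins, had 9.02 and 8.14 in the nucleus, against 5.13 and 6.98 in the hippocampus. Lgi2, of the family of secreted proteins that bind ADAM receptors at synapses, had 6.82 and 7.47, against 5.69 and 6.06, and the remaining higher members were Lgi3 and Slitrk6. Cbln1, a cerebellin that bridges neurexins to delta glutamate receptors, had 6.86 and 6.04, against 4.80 and 5.25, and passed 2-fold in mouse 355 only. The nucleus arrays were above the hippocampus arrays for Nxph4, Lgi2 and Cbln1. Of the higher members, the study chose Nxph4, Lgi2 and Slitrk6 on these same arrays, so their place in the count is not independent evidence.

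Signalling enzymes were lower more often than higher, with 9 of 36 genes of phosphoinositide and cyclic nucleotide signalling at least 2-fold lower and 2 higher. These shares were 1.52% and 0.987% over all genes. Pde2a, a cyclic nucleotide phosphodiesterase, had 6.39 and 6.39 in the nucleus, against 8.76 and 8.84 in the hippocampus, and the calcium-stimulated adenylyl cyclase Adcy1 had 4.81 and 5.43, against 7.15 and 7.83. Both passed limma over genes, each with an adjusted p of 0.0354. The higher members were Plcb4, a phospholipase C downstream of Gq, with 6.75 and 6.25 in the nucleus, against 4.49 and 5.00 in the hippocampus, and Dgkk, a diacylglycerol kinase, with 5.62 and 6.86, against 3.30 and 3.69. Plcb4 and Dgkk are among the genes the study chose on these same arrays, so their count is not independent evidence. Of 31 Wnt ligands and modulators 1 was at least 2-fold higher and 1 lower, against 0.987% and 1.52% of all genes. The higher one was Sfrp5, a secreted Frizzled-related antagonist, at 6.79 and 7.28 in the nucleus, against 4.03 and 4.26 in the hippocampus. Its relative Frzb was the lower one, at 2.65 and 3.07, against 3.86 and 4.68.

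Oligodendrocyte genes were higher in the nucleus in larger share than any other list of a cell type or function. Of 22 measured, 14 were at least 2-fold higher in both mice and none lower (63.6%, against 0.987% of all genes), and the list medians were 1.54 and 1.68. Oligodendrocytes make the myelin of axons, and the listed genes include structural myelin proteins, lipid enzymes and lineage factors. Ermn (ermin), a cytoskeletal protein of mature oligodendrocytes, had 9.28 and 9.04 in the nucleus, against 5.03 and 6.45 in the hippocampus. Aspa, which releases acetate for lipid synthesis from N-acetylaspartate, had 8.54 and 8.42 in the nucleus, against 5.82 and 5.60 in the hippocampus (limma adjusted p = 0.152 over all probe sets and 0.0354 over genes). Mobp, a myelin-associated basic protein, had 9.42 and 9.63, against 7.14 and 7.22, and likewise passed over genes only (0.046). These genes were also bright in the cortex, which had 8.70 and 8.36 for Ermn, 7.38 and 7.76 for Aspa and 9.31 and 8.88 for Mobp.

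Ugt8a, the enzyme of galactocerebroside synthesis, had 8.93 and 9.05 in the nucleus, against 5.90 and 6.84 in the hippocampus, and Mog, a surface glycoprotein of myelin, had 9.01 and 8.62, against 5.72 and 6.98. Cldn11, the tight junction protein of myelin, had 10.34 and 9.87 in the nucleus, against 7.53 and 8.05 in the hippocampus. These genes had both nucleus arrays above both hippocampus arrays. Earlier markers of the lineage were split. The lineage factor Sox10 had 5.90 and 6.69 in the nucleus, against 4.71 and 5.00 in the hippocampus, and was past 2-fold in both mice. The lineage factor Olig2 had 6.78 and 6.28 in the nucleus, against 6.60 and 6.83 in the hippocampus, and Pdgfra, a receptor of oligodendrocyte precursors, had 6.29 and 6.36, against 6.55 and 6.58, with the regions less than 2-fold apart in both mice for both genes.

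The summed oligodendrocyte signal was 10959 and 10503 in the nucleus, against 3299 and 4024 in the hippocampus. The cortex had 9138 and 6907, and 0 of the 22 genes exceeded the cortex by 2-fold (0.415% of all genes). In the hippocampus 8 of the 22 were at least 2-fold lower than in the cortex in both mice (0.307% of all genes), and the list median of hippocampus minus cortex was -1.16. The contrast of nucleus with cortex shares its nucleus arrays, and that of hippocampus with cortex its hippocampus arrays, with the one described here. The hippocampus was therefore the region with the least oligodendrocyte signal of the 3 sampled, and 14 of the 219 higher genes were on this list. Its part in the other higher genes was not tested.

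Astrocyte genes were higher in the nucleus to a lesser extent. Of 24 measured, 4 were at least 2-fold higher in both mice and none lower (0.987% and 1.52% of all genes). At any size 14 were higher, against 30.0% of all genes, and 4 lower, against 26.6% (median difference 0.47). Itih3, a heavy chain that links to hyaluronan, had 9.02 and 8.73 in the nucleus, against 5.22 and 5.32 in the hippocampus. Agt, the angiotensinogen that astrocytes of the hypothalamus make in quantity, had 9.80 and 10.10 in the nucleus, against 8.09 and 7.58 in the hippocampus. Slc6a11, the GABA transporter GAT3 of astrocytes, had 10.40 and 10.57, against 8.57 and 8.57. Etnppl, an enzyme of phospholipid turnover, was the further member with 7.17 and 7.71, against 5.02 and 5.12. Itih3, Agt and Etnppl are among the genes the study chose on these same arrays, so their place in this count is not independent evidence. Astrocyte genes found in most regions were split. S100b, a calcium-binding protein, had differences of 0.99 and 0.96 and the connexin gene Gjb6 had differences of 0.61 and 1.14. The glutamate transporters Slc1a2 and Slc1a3 were lower in both mice, with differences of -0.45 and -0.46 for Slc1a2 and -0.92 and -0.44 for Slc1a3, and the filament gene Gfap had 6.69 and 7.38 in the nucleus, against 8.54 and 7.28 in the hippocampus. The summed astrocyte signal was 17012 and 17789 in the nucleus, against 12990 and 13372 in the hippocampus.

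**Figure D4:**
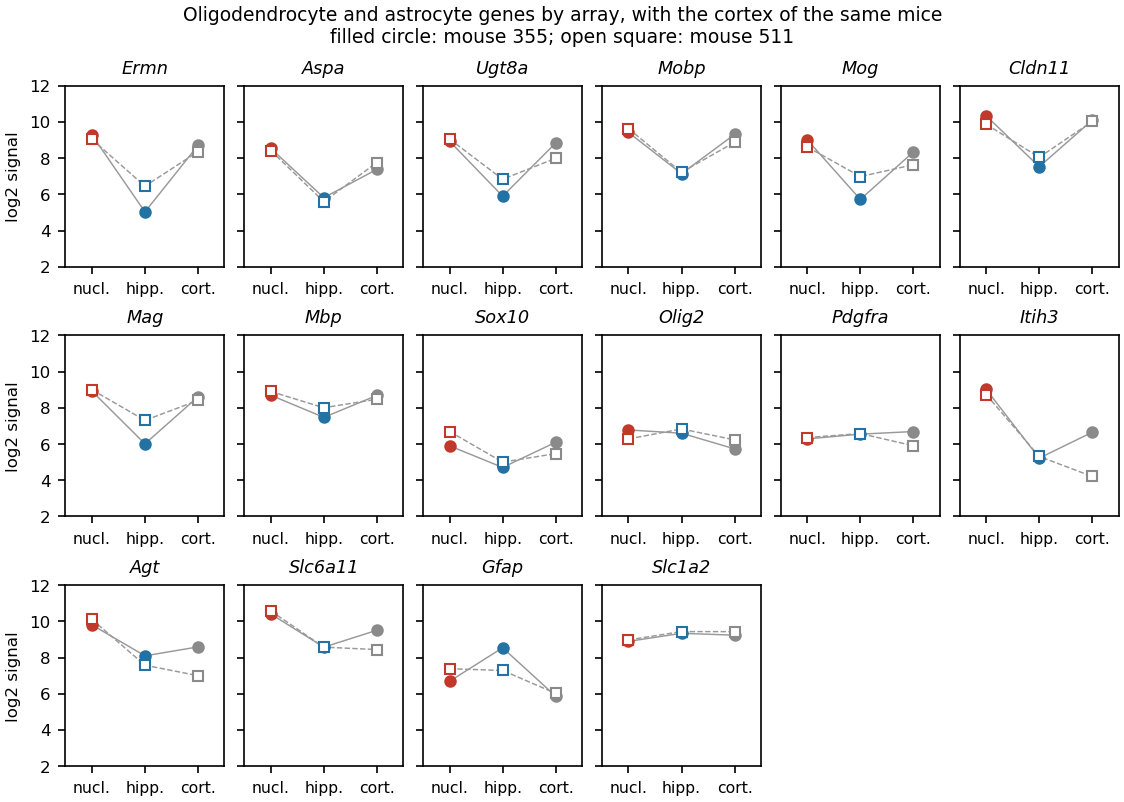
Log2 signal of oligodendrocyte and astrocyte genes in each array, with the nucleus, the hippocampus and the cortex from left to right and the mice as filled circles (355) and open squares (511). Myelin genes such as Ermn and Mog are lowest in the hippocampus, whereas Olig2, Pdgfra and Slc1a2 differ little.

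Microglial genes were slightly lower in the nucleus, with 10 of 14 lower in both mice, against 26.6% of all genes, none higher and none past 2-fold (median difference -0.47). P2ry12, the purinergic receptor of resting microglia, had 6.77 and 6.62 in the nucleus, against 7.70 and 8.29 in the hippocampus. The summed microglial signal was 1516 and 1766 in the nucleus, against 2049 and 2535 in the hippocampus. No gene of 18 vessel markers passed 2-fold, with summed signals of 2529 and 2324, against 2636 and 2602. Of all genes, 0.987% were higher and 1.52% lower by the 2-fold rule. Of 15 markers of meninges and ventricle 1 was at least 2-fold higher and 1 lower, against 0.987% and 1.52% of all genes. The higher one was Ptgds, the prostaglandin D synthase of meninges and choroid plexus that oligodendrocytes also make. It had 11.21 and 10.97 in the nucleus, against 10.01 and 9.70 in the hippocampus. The lower one was Dcn (decorin), a matrix proteoglycan of connective tissue, with 6.02 and 6.72, against 10.10 and 10.10.

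Perineuronal net genes were not raised in the nucleus as a group. The nucleus was located on neighbouring sections by a lectin that binds sugars of these nets, which the arrays do not measure. Of 15 measured, 1 was at least 2-fold higher in the nucleus and 3 lower (0.987% and 1.52% of all genes). The summed signal was 1185 and 1402 in the nucleus, against 1717 and 1899 in the hippocampus. Hapln2, a link protein found at nodes of Ranvier, was the higher one, with 7.12 and 6.01 in the nucleus, against 4.94 and 4.26 in the hippocampus. Acan (aggrecan), the core proteoglycan of the nets, was dim everywhere, at 4.08 and 3.44 in the nucleus and 3.37 and 3.69 in the hippocampus. Ncan (neurocan) had 7.79 and 8.60 in the nucleus, against 9.56 and 9.62 in the hippocampus, the link protein Hapln1 had 4.53 and 4.33, against 5.88 and 5.48, and Crtac1, a secreted cartilage protein, had 5.89 and 5.33, against 7.12 and 7.75.

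Immediate early genes, which neurons switch on with activity and which also respond to handling and death, were lower in the nucleus, with 14 of 16 lower in both mice, against 26.6% of all genes, and 3 past 2-fold, against 1.52% (median difference -0.71). Fosl2 had 5.33 and 5.47 in the nucleus, against 7.64 and 7.28 in the hippocampus, and Egr3 had 5.08 and 4.92, against 6.51 and 6.99. Nr4a1 had 7.43 and 5.82, against 8.51 and 7.89, so that its nucleus arrays differed more between the mice than its hippocampus arrays did. Of 11 housekeeping genes none passed 2-fold in either direction. Actb had 10.33 and 9.76 in the nucleus, against 10.33 and 10.07 in the hippocampus, and Gapdh had 11.94 and 11.62, against 11.97 and 12.22.

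Outside these lists, further genes stood at the ends of the ranking by the smaller of the differences in the 2 mice. Among the higher ones, Tmem196, a membrane protein, had 8.49 and 7.89 in the nucleus, against 5.10 and 4.85 in the hippocampus. Rmst, a long noncoding RNA of the developing ventral midbrain, had 8.57 and 8.99, against 5.14 and 4.88, and Irs4, an insulin receptor substrate with high expression in the hypothalamus, had 6.27 and 6.85, against 3.61 and 3.20. Apoc1, a lipoprotein component, had 8.75 and 9.30 in the nucleus, against 6.60 and 6.58 in the hippocampus. Rmst and Apoc1 passed limma over genes, with adjusted p of 0.0291 and 0.046.

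Among the lower ones, Spink8, a serine protease inhibitor of hippocampal pyramidal cells, had 2.99 and 2.79 in the nucleus, against 8.23 and 7.62 in the hippocampus. Crym, a thyroid hormone-binding protein, had 4.50 and 4.55, against 8.44 and 8.73, and Ptk2b, a calcium-activated tyrosine kinase of the hippocampus, had 5.20 and 5.45, against 9.73 and 9.17. Gda, a guanine deaminase that takes part in dendrite growth, had 5.57 and 5.44 in the nucleus, against 8.97 and 9.09 in the hippocampus, and Rspo3, a Wnt-enhancing R-spondin, had 4.44 and 5.26, against 7.82 and 8.10. The spread between the mice was small against the distance between the regions for these 5 genes, which all passed limma over genes with an adjusted p between 0.0116 (Crym) and 0.0391 (Rspo3 and Spink8). The median signal of the 338 lower genes was 5.47 in the nucleus and 7.41 in the hippocampus, and that of the 219 higher genes was 7.04 in the nucleus and 5.12 in the hippocampus.

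**Figure D5:**
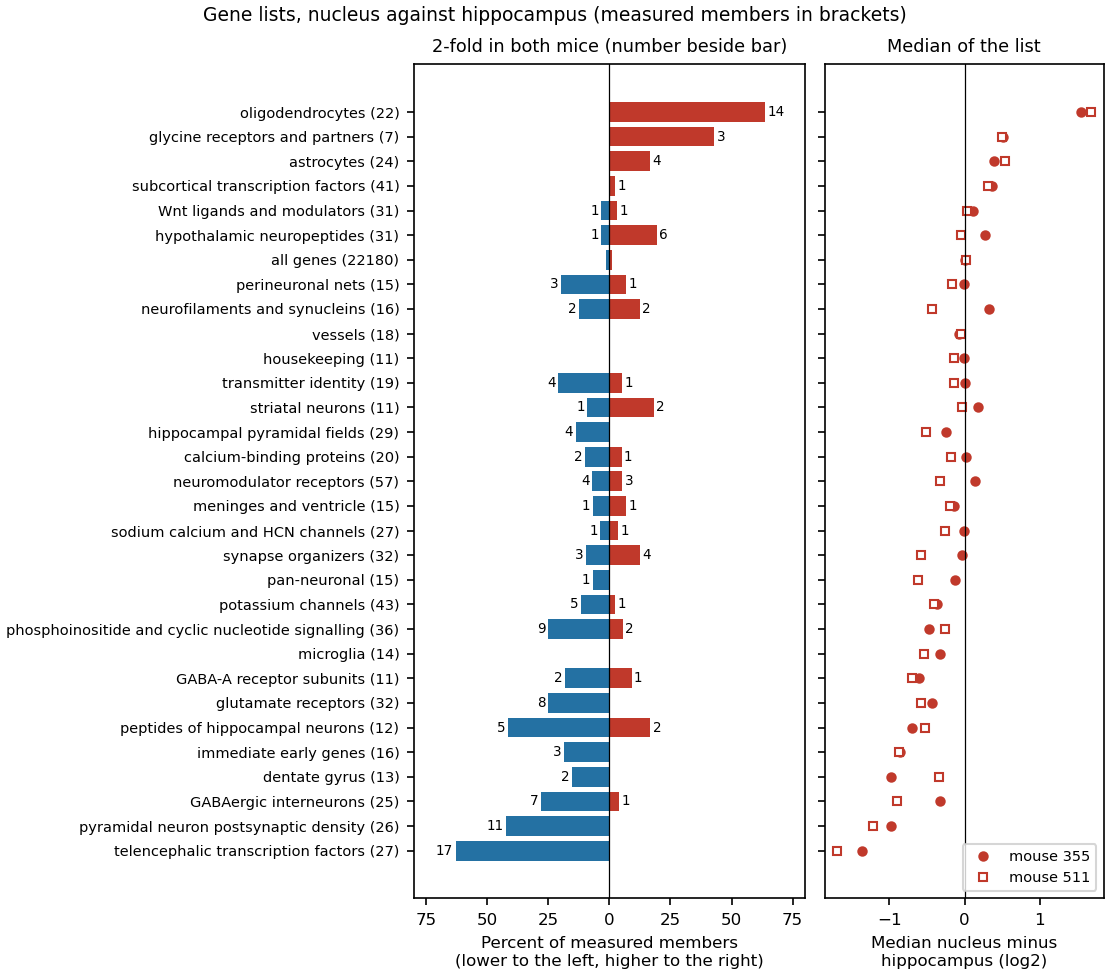
For each of 30 gene lists (the genes the study names and a blood list with 1 measured gene are left out) and all genes, the left panel gives the percent of its measured genes that differ by 2-fold or more in both mice, higher or lower in the nucleus, and the right panel the median difference (log2) of the list in each mouse, sorted by the median over mice. Of the lists drawn, oligodendrocytes lie at one end with medians of 1.54 and 1.68 and telencephalic transcription factors at the other with -1.36 and -1.69, and all 22180 genes lie near 0.

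A further list holds the genes that the study itself names for its arrays, of which 58 of 63 were measured. At least 2-fold higher in both mice were 47 of them and 2 were lower (Slc17a7 and Gad1), but the study chose these genes on the same arrays, so the count is not independent evidence of their direction. The same holds for its higher genes counted in the lists above, among them Ebf3, Gpr139, Drd2, Vamp1 and Sfrp5.

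The arrays carried their labels' markers in most respects. The nucleus arrays were bright for Slc17a6 and near or below the array median for Slc17a7 and Neurod6. They were also bright for Pmch, a gene of lateral hypothalamic neurons that is not a marker of the parvafox nucleus as such. The study lists Pmch as negative in the in situ hybridization database that it searched. The hippocampus arrays were bright for Neurod6, Slc17a7 and the dentate marker Prox1 (7.67 and 6.80). The methods, however, place the captured hippocampal pieces in the CA2 and CA3 area. Foxb1 was above its hippocampal level by 2.27 and 0.32, so that the shell marker separated the nucleus clearly in mouse 355 only. Pvalb was present in both regions.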

How the data were processed

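Captured pieces of parvafox nucleus, hippocampus and cerebral cortex from 2 mice were hybridized to whole-transcript Affymetrix arrays, 1 array per region and mouse. Per the labels and the methods, the authors purified total RNA, amplified it by whole-transcript amplification and summarized the arrays with RMA in Expression Console 1.2.1.20, with R 2.14.2 named for their statistics. The deposited values are log2 signals, background-corrected and quantile-normalized by RMA, which makes the arrays' distributions alike and would hide a change in total RNA. The genome build is not given in the sources used here. The number of arrays limits the precision, and every array column was mapped to a sample.

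Of 41345 probe sets, 190 were controls, 23521 had 1 gene symbol in the platform annotation, 1820 had several and 16004 had none. Genes were taken from probe sets with 1 symbol only, and the brightest over the 6 arrays was used where a gene had more than 1 (1082 genes). Symbols were checked against RefSeq (GRCm38.p6), where 23328 probe sets matched by gene identifier. Summed signals of a list add the signals of its genes on the linear scale.

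Differences were taken within each mouse, and a gene was counted as higher or lower where both mice reached 2-fold. Tests used limma 3.58.1 in R 4.3.3 on all 6 arrays and all probe sets, with the mouse as a block, 2 residual and 2.769 prior degrees of freedom and Benjamini-Hochberg adjustment. The block follows from the regions of each mouse coming from 1 animal. The differences between the mice correlated across genes with 0.059 between nucleus and hippocampus, 0.079 between nucleus and cortex and 0.06 between hippocampus and cortex. Each mouse gave 1 array per region, so p-values rest on 2 mice and on the spread left over all 3 regions after the block. The fitting steps were tested on simulated data. Python 3.11.15 (pandas 2.3.3, matplotlib 3.10.9, numpy 2.4.6) made the tables and figures.

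The genes and lists were chosen with earlier results of these data known. Named genes were those past the adjusted threshold, the 25 at each end ranked by the smaller within-mouse difference with a signal of at least 6 in the brighter region, the 8 list members with the largest mean difference, for each list, the genes the study names, the 8 of largest opposite differences and defining markers of cell types. Other genes named, among them those at the edge of the 2-fold rule and further list members, were chosen after their values were seen. Alternatives covered the block, the arrays and probe sets fitted, the scaling, the fold threshold, the probe set rule and each replicate left out.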

Additional observations from a re-analysis of the deposited data

How the results depend on the processing

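The single limma call over all probe sets, Pmch, depended on the fit. Without the replicate block limma called 5 probe sets higher and 15 lower. It called 0 higher on the 4 arrays of these regions alone with the block, after median centring (Pmch adjusted p = 0.0634), with an intensity trend (0.0594) and with robust moderation (0.0508). Fits on fewer probe sets gave 7 higher and 27 lower (1 gene symbol), 12 and 39 (the brightest of each gene) and 1 and 2 (above the median signal). With any 1 array left out the calls ranged from 0 to 0 in both directions, the lone array being assumed to vary like the other groups.

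The 219 higher and 338 lower genes became 636 and 906 at 1.5-fold, 72 and 114 at 3-fold and 462 and 606 on the mean of the mice. With 1 mouse left out the counts ranged between 703 and 850 for higher genes and between 740 and 1183 for lower genes. Without pairing by mouse, with every nucleus array at least 2-fold from every hippocampus array, 146 genes were higher and 257 lower. Subtraction of Actb moved the median difference of all genes to 0.179, against 0.021, and the split to 305 higher and 255 lower. Cyclic loess gave 235 and 311, and median centring 195 and 370.

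Of 1680 alternative values of the named genes' mean differences, 131 moved by more than the spread between mice, and 33 changed sign, none of them for a gene called higher or lower. Of 192 alternative list medians 17 changed sign, all of lists for which no direction is given above. The 2-fold counts of lists, whose alternatives were chosen after seeing the data, stayed between 14 and 16 for higher oligodendrocyte genes, between 15 and 19 for lower telencephalic factors, between 8 and 15 for lower postsynaptic density genes and between 4 and 7 for higher astrocyte genes.

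Signal limits what can be read, since 144 of the 219 higher genes had a nucleus signal of at least 6 in both mice and 270 of the 338 lower genes a hippocampus signal of at least 6, and dimmer genes showed less likeness between the mice.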

Other observations

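Some bright genes differed between the regions in opposite directions in the mice. Maf, a transcription factor of interneurons and other cells, had 6.27 and 2.79 in the nucleus, against 4.61 and 7.46 in the hippocampus. The small RNA gene Rnu3a had 3.08 and 6.28 in the nucleus, against 6.25 and 3.21 in the hippocampus, and DQ267102 had 6.41 and 7.85, against 7.87 and 3.99. Bms1, a ribosome assembly factor, had 4.60 and 6.51 in the nucleus, against 6.62 and 4.33 in the hippocampus. For these genes neither region was the higher one, although single arrays differed by more than 2-fold.

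Among 17634 further probe sets that were not controls and carried no single gene symbol, 202 were at least 2-fold higher in the nucleus in both mice and 160 lower. The median nucleus signal of the higher ones was 5.62, and the median hippocampus signal of the lower ones was 6.21.

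Of the genes called 2-fold higher or lower, 45 had other probe sets. Of these 59 other probe sets 39 had the same direction in both mice and 5 passed 2-fold themselves. Rmst had the same direction in another probe set, with differences of 1.53 and 0.98, short of 2-fold in mouse 511. Those of Irs4 (0.285 and 1.78) and Icam5 (-1.09 and -0.81) also fell short in 1 mouse. Those of Bcl11a (-0.82 and -0.92) and Slc32a1 (-0.23 and -0.95) fell short in both mice. For Ncan (-0.56 and -1.17) and Etv1 (-0.94 and -1.91) they fell short in mouse 355. Those of Chrm1 (-1.44 and -3.79) and Mef2c (-1.08 and -1.605) passed.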
